A study of Homo sapiens with 10 samples.

Results

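The 45 genes described here encode proteins of mitosis: the cyclins and kinases that start it, the spindle checkpoint, the kinetochore, the spindle and the machinery that splits the cell. They are a fixed list of 45 gene symbols, not chosen by a threshold on measured values, though chosen with earlier results of these data known. They were matched to the deposited gene counts by Ensembl identifier through GENCODE release 44. All 45 were found among the 78932 identifiers of the table, and all 45 passed the filter on low counts that left 21033 genes for testing. The lowest count of any of them in any library was 31, for SPC25.

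At mitosis, cyclin B switches on the kinase CDK1, and the chromosomes are captured through their kinetochores by the microtubules of the spindle. The spindle checkpoint holds the cell until every kinetochore is attached, then CDC20 activates the anaphase-promoting complex (APC/C), which marks cyclin B and securin for destruction. Most of these genes are transcribed in the late cell cycle under MuvB protein complexes that hold MYBL2 and FOXM1, and their RNA declines as cardiomyocytes leave the cell cycle.

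Total RNA was sequenced from cardiomyocytes differentiated out of the established human embryonic stem cell line H1. GapmeRs are antisense oligonucleotides that pair with an RNA and let RNase H cut it. In the knockdown group, 5 libraries came from beating cells given 50 nM of GapmeR against the RNA called CLIPPER on day 9 of differentiation, and in the control group 5 libraries came from cells given 50 nM of a control GapmeR on the same day. Both groups were collected 48 hours later. All cells are of 1 line, no sort of cardiomyocytes is named in the labels, and CLIPPER RNA itself was not analysed here.

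Library totals lay between 32879710 and 42073139 counts in the knockdown and between 33516136 and 45052044 counts in the control, and 1 count was worth 0.0213 to 0.0315 CPM (the usual counts-per-library unit, with the count scaled to a fixed normalised library total). The first principal component of all tested genes held 85.2% of the variance, with the knockdown libraries between -140.3 and -49.5 and the control libraries between 102 and 108. Knockdown library 2 lay nearest to the controls. The 10 cardiomyocyte markers summed to between 10712 and 17223 CPM in knockdown libraries, against between 27193 and 37509 CPM in control libraries, and 7 of the 10 fell. Summed markers of stromal cells were 958 to 1127 CPM in knockdown libraries and 1272 to 1392 CPM in control libraries, and 2 of 9 tested rose and 4 fell. Those of smooth muscle were 656 to 1178 CPM in knockdown libraries and 1844 to 3175 CPM in control libraries, and all 8 fell. Endothelial markers came to 21.1 to 28.1 CPM in knockdown libraries and 42.8 to 65.3 CPM in control libraries (4 of 6 tested fell), with PECAM1, CDH5 and VWF under 1 CPM in every library. KDR averaged 11.6 CPM in the knockdown and 36.5 CPM in the control, and EGFL7 8.26 and 12.3 CPM. CLDN5, which was not tested, was higher in the knockdown, at 1.14 against 0.048 CPM. Pluripotency markers summed to 8.59 to 10.97 CPM in knockdown libraries and 7.95 to 10.6 CPM in control libraries, with NANOG, POU5F1 and SOX2 under 1 CPM in every library and PRDM14 at 0, and 3 of 5 tested rose and 1 fell. LIN28A (mean 2.51 CPM in the knockdown, 0.258 in the control), DPPA4 (1.65, 0.211) and ZFP42 (0.805, 0.140) rose, and DNMT3B (4.01, 7.86) fell. Summed endoderm markers were 13.97 to 23.1 CPM in knockdown libraries and 11.6 to 13.1 CPM in control libraries, with AFP, FOXA2 and TTR under 1 CPM in every library (1 of 4 tested rose and 1 fell). The rise was that of APOA1 (mean 14.9 CPM in the knockdown, 6.03 in the control) and the fall that of EPCAM (2.37, 5.25). Epicardial markers were 2.58 to 4.34 CPM in knockdown libraries and 5.39 to 6.95 CPM in control libraries (3 of 3 tested fell). The part of these shifts in the results on mitotic genes was not tested.

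The mitotic genes did not move as a block. Of the 45, 23 rose in the knockdown, 16 fell and 6 did not pass the test (edgeR's quasi-likelihood test, adjusted p below 0.05 by Benjamini-Hochberg over 21033 genes). Across all tested genes 40.1% rose and 39.6% fell, against 51.1% and 35.6% of the mitotic genes, so that the share that fell was near that of all genes. In 22 of the 45 the lowest knockdown library lay above the highest control library, and in 11 the highest knockdown library lay below the lowest control library, against 33.7% and 33.8% of all tested genes. The median log2 fold change (knockdown over control) was 0.31, against 0.0056 for all tested genes and -0.22 for tested coding genes. Changes of at least 2-fold were fewer than among all genes: 8 of the 45 (17.8%) rose and 5 (11.1%) fell that far, against 24.3% and 24.2% of all tested genes.

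Log2 fold changes ran between 2.49 for CKS2 and -1.41 for BUB1B. In bulk RNA, fewer cells in mitosis and less of an RNA per cell cannot be told apart. With upper-quartile in place of TMM scaling the median over all tested genes shifted up by 0.20 on the log2 scale, and 27 of the 45 then rose and 13 fell. The background moved as well: rises made up 56.8% of the calls over all tested genes, against 50.3% with TMM scaling. Among the calls of the 45 genes these shares were 67.5% and 59.0%. Summed over the 45 genes, the libraries held 1442, 1664, 1648, 1913 and 1656 CPM in knockdown libraries 1 to 5, against 1220, 1246, 1322, 1383 and 1236 CPM in control libraries 1 to 5. Every knockdown library was above every control library in this sum. The sum is weighted towards genes with high counts, and 16 of the 45 fell in the reported test. By the median over the 45 genes of the log2 ratio to the control mean, the libraries overlapped. Knockdown library 3 had 0.105 there and control library 4 had 0.107.

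**Figure D1:**
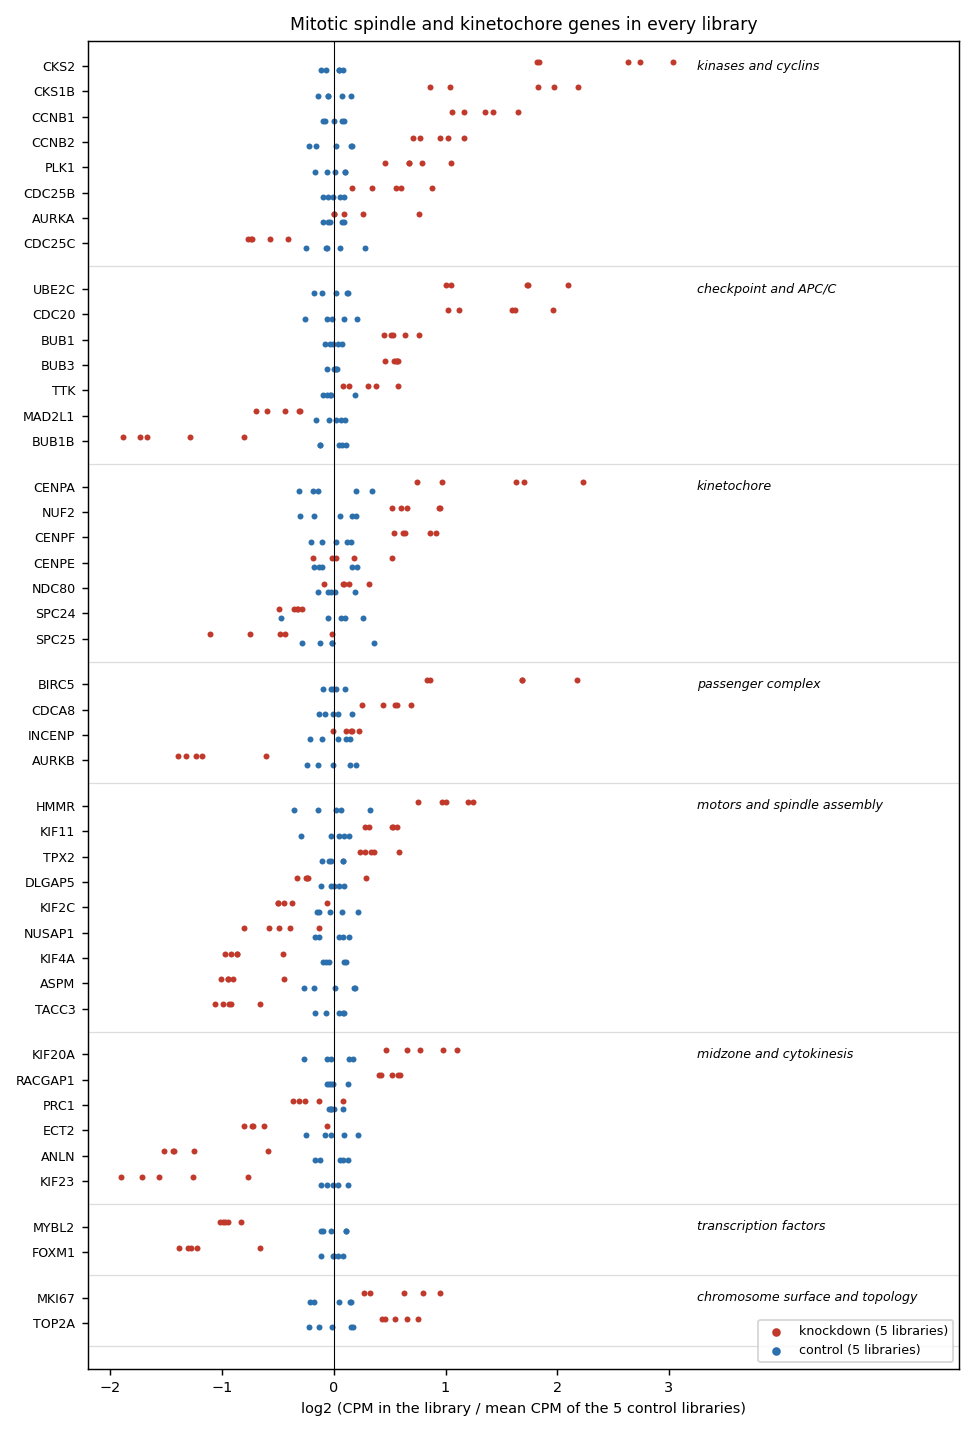
Each point is 1 gene in 1 library: the horizontal axis gives log2 of its CPM over the mean CPM of the 5 control libraries, and genes are grouped by role. Knockdown points (red) lie right of the control points (blue) for 22 genes and left of them for 11, with both directions in most groups.

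Among the kinases, cyclins and their regulators, 6 of 8 rose, 1 fell and AURKA did not pass the test. CKS2, a small subunit that binds cyclin-dependent kinases, showed the largest rise of the 45. It lies at chr9:89311195-89316703 on the plus strand of GRCh38. Normalised counts of CKS2 were 43.4, 42.7, 80.8, 99.2 and 75.1 CPM in knockdown libraries 1 to 5 and 12.5, 12.5, 11.5, 12.8 and 11.2 CPM in control libraries 1 to 5. All 5 knockdown libraries exceeded every control library, and knockdown libraries 1 and 2 were the lowest of their group. The means were 68.2 ± 24.7 CPM in the knockdown and 12.1 ± 0.711 CPM in the control (SD, n = 5 each), so that CKS2 was 5.63-fold higher in the knockdown (log2 fold change 2.49, SE 0.22, adjusted p = 7.7e-07). Per kb of exon this came to 111 CPM in the knockdown and 19.7 CPM in the control libraries, so that CKS2 had the highest level per length of the 45 in the knockdown, while TPX2 had it in the control libraries with 35.6 CPM per kb. CKS1B had 59.8, 52.8, 114, 132 and 103 CPM in knockdown libraries 1 to 5, against 32.3, 28.1, 28.0, 30.7 and 26.4 CPM in control libraries 1 to 5. CKS1B averaged 92.4 ± 34.7 CPM in the knockdown and 29.1 ± 2.36 CPM in the control (SD, n = 5 each), 3.17-fold higher in the knockdown (log2 fold change 1.67, SE 0.23, adjusted p = 2.5e-05). CKS1B, the paralog of CKS2 with the same role, thus rose as well, with the same pair of knockdown libraries lowest.

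Both B-type cyclins, which activate CDK1, rose. CCNB1 lies at chr5:69167135-69178245 on the plus strand. Normalised counts of CCNB1 were 57.3, 61.8, 70.2, 86.3 and 73.8 CPM in knockdown libraries 1 to 5 and 25.7, 29.0, 27.6, 29.3 and 26.1 CPM in control libraries 1 to 5. Its mean was 69.9 ± 11.3 CPM in the knockdown and 27.5 ± 1.63 CPM in the control (SD, n = 5 each), or 2.54-fold higher in the knockdown (log2 fold change 1.34, SE 0.11, adjusted p = 4.3e-07). The groups did not overlap. Levels of CCNB2 were 21.1 to 29.1 CPM in the knockdown and 11.1 to 14.5 CPM in the control, 1.91-fold higher in the knockdown (log2 fold change 0.93, SE 0.12, adjusted p = 1.1e-05). PLK1, the Polo kinase that acts at centrosomes, kinetochores and the midzone, rose less. At 34.6 to 51.8 CPM in knockdown libraries and 22.3 to 26.9 CPM in control libraries, PLK1 was 1.67-fold higher in the knockdown (log2 fold change 0.74, SE 0.11, adjusted p = 4.6e-05). Exons of ERN2 lie on the other strand at PLK1, and the sources used here do not give the strand setting of the counting.

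The CDC25 phosphatases, which remove the inhibitory phosphates from CDK1, split. CDC25B ranged between 33.6 and 55.2 CPM in knockdown libraries and between 28.0 and 32.02 CPM in control libraries, 1.44-fold higher in the knockdown (log2 fold change 0.53, SE 0.12, adjusted p = 0.0015). Levels of CDC25C were 1.79 to 2.30 CPM in the knockdown and 2.56 to 3.69 CPM in the control, 1.55-fold lower in the knockdown (log2 fold change -0.63, SE 0.14, adjusted p = 0.0013). CDC25B was above and CDC25C below its controls in every library, and CDC25C shares exonic sequence with FAM53C on the other strand. AURKA had 34.5, 48.8, 28.8, 30.7 and 28.8 CPM in knockdown libraries 1 to 5, against 27.8, 30.4, 28.2, 30.6 and 27.0 CPM in control libraries 1 to 5. Here knockdown library 2 stood above all other libraries, while knockdown libraries 3 and 5 lay within the range of the controls. AURKA, the kinase of the spindle poles, did not pass the test (log2 fold change 0.25, SE 0.14, adjusted p = 0.11).

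Within the checkpoint and the APC/C group, 5 of 7 rose and 2 fell. CDC20 activates the APC/C and is itself the target of the checkpoint. Normalised counts of CDC20 were 49.6, 53.2, 75.4, 95.3 and 73.9 CPM in knockdown libraries 1 to 5 and 24.2, 23.4, 28.3, 26.0 and 20.4 CPM in control libraries 1 to 5. The means were 69.5 ± 18.6 CPM in the knockdown and 24.4 ± 2.93 CPM in the control (SD, n = 5 each), so that CDC20 was 2.84-fold higher in the knockdown (log2 fold change 1.51, SE 0.17, adjusted p = 4.9e-06). UBE2C, a ubiquitin-conjugating enzyme of the APC/C, followed the same library pattern. UBE2C had 23.4, 24.1, 38.9, 49.9 and 38.7 CPM in knockdown libraries 1 to 5, against 11.8, 10.8, 12.6, 12.8 and 10.3 CPM in control libraries 1 to 5. UBE2C averaged 35.0 ± 11.3 CPM in the knockdown and 11.7 ± 1.08 CPM in the control (SD, n = 5 each), 3.00-fold higher in the knockdown (log2 fold change 1.58, SE 0.20, adjusted p = 1.1e-05). In both genes the groups did not overlap and knockdown library 4 was highest.

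The kinetochore kinase BUB1 and its paralog BUB1B went in opposite directions. Normalised counts of BUB1 were 58.0, 65.8, 61.3, 72.1 and 60.7 CPM in knockdown libraries 1 to 5 and 41.5, 44.6, 42.4, 43.6 and 40.2 CPM in control libraries 1 to 5. Its mean was 63.6 ± 5.53 CPM in the knockdown and 42.5 ± 1.72 CPM in the control (SD, n = 5 each), or 1.498-fold higher in the knockdown (log2 fold change 0.58, SE 0.079, adjusted p = 2.3e-05). BUB1B encodes BubR1, a part of the complex that binds and holds CDC20, and lies at chr15:40161023-40221123 on the plus strand. BUB1B had 9.13, 12.7, 6.97, 5.998 and 6.68 CPM in knockdown libraries 1 to 5, against 20.4, 23.4, 20.5, 23.9 and 23.0 CPM in control libraries 1 to 5. The means were 8.30 ± 2.74 CPM in the knockdown and 22.2 ± 1.69 CPM in the control (SD, n = 5 each), so that BUB1B was 2.67-fold lower in the knockdown (log2 fold change -1.41, SE 0.18, adjusted p = 1.6e-05). No library of either gene overlapped the other group, and BUB1B was the largest fall of the 45. BUB1B exons are shared with the readthrough transcript BUB1B-PAK6 on the same strand, so its counts may leave out or include reads of that gene.

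BUB3, which brings BUB1 and BubR1 to the kinetochore, rose in close agreement between libraries. At 57.2 to 61.8 CPM in knockdown libraries and 39.8 to 42.4 CPM in control libraries, BUB3 was 1.46-fold higher in the knockdown (log2 fold change 0.54, SE 0.065, adjusted p = 8.1e-06). MAD2L1, which encodes the MAD2 protein that binds CDC20 in the checkpoint complex, fell. MAD2L1 ranged between 10.2 and 13.5 CPM in knockdown libraries and between 14.9 and 17.8 CPM in control libraries, 1.37-fold lower in the knockdown (log2 fold change -0.46, SE 0.10, adjusted p = 0.0012). TTK, the MPS1 kinase at the top of the checkpoint, was the weakest call among these. Levels of TTK were 10.6 to 14.8 CPM in the knockdown and 9.34 to 11.4 CPM in the control, 1.24-fold higher in the knockdown (log2 fold change 0.31, SE 0.11, adjusted p = 0.023). Its groups overlapped, and its call was lost when knockdown library 4 or control library 1, 2, 3 or 5 was left out alone (adjusted p between 0.054 and 0.078).

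At the kinetochore itself 3 of 7 rose, 2 fell and 2 did not pass. CENPA, the histone H3 variant that marks the centromere, had the largest rise. Normalised counts of CENPA were 6.13, 5.25, 9.70, 14.7 and 10.2 CPM in knockdown libraries 1 to 5 and 2.75, 2.83, 3.58, 3.96 and 2.51 CPM in control libraries 1 to 5. CENPA averaged 9.19 ± 3.75 CPM in the knockdown and 3.13 ± 0.613 CPM in the control (SD, n = 5 each), 2.93-fold higher in the knockdown (log2 fold change 1.55, SE 0.26, adjusted p = 0.00015). Its 5 knockdown libraries were all above the controls, and CENPA shares exonic sequence with SLC35F6 on the same strand. CENPF, a large protein of the outer kinetochore, rose as well. At 89.3 to 117 CPM in knockdown libraries and 53.5 to 68.5 CPM in control libraries, CENPF was 1.65-fold higher in the knockdown (log2 fold change 0.72, SE 0.10, adjusted p = 3.3e-05). CENPE, the kinetochore motor, did not pass. Levels of CENPE were 12.1 to 19.7 CPM in the knockdown and 12.2 to 15.9 CPM in the control. Its log2 fold change was 0.13 with an SE of 0.14 (adjusted p = 0.41), and it was -0.0023 without knockdown library 2.

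The 4 subunits of the NDC80 complex, which grips the microtubule end, did not move together. Levels of NUF2 were 5.58 to 7.48 CPM in the knockdown and 3.16 to 4.45 CPM in the control, 1.68-fold higher in the knockdown (log2 fold change 0.74, SE 0.14, adjusted p = 0.00033). NDC80, the partner of NUF2 in the arm that touches the microtubule, did not pass. Levels of NDC80 were 11.1 to 14.7 CPM in the knockdown and 10.7 to 13.4 CPM in the control. Its log2 fold change was 0.11 with an SE of 0.10 (adjusted p = 0.31). SPC24 and SPC25 form the other end of the complex, which is anchored on the chromosome side. SPC24 ranged between 2.58 and 2.96 CPM in knockdown libraries and between 2.60 and 4.31 CPM in control libraries, 1.28-fold lower in the knockdown (log2 fold change -0.35, SE 0.14, adjusted p = 0.039). Levels of SPC25 were 0.939 to 2.00 CPM in the knockdown and 1.66 to 2.59 CPM in the control, 1.42-fold lower in the knockdown (log2 fold change -0.50, SE 0.21, adjusted p = 0.040). Both sets of libraries overlapped, and each of these 2 calls was lost under many of the 19 other settings, 13 for SPC24 and 11 for SPC25.

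The chromosomal passenger complex corrects faulty attachments and then moves to the midzone. It has the kinase AURKB and its partners INCENP, BIRC5 (survivin) and CDCA8 (borealin). Of these 4 genes 2 rose, 1 fell and 1 did not pass. AURKB lies at chr17:8204733-8210600 on the minus strand. AURKB had 3.22, 4.78, 2.76, 2.91 and 3.09 CPM in knockdown libraries 1 to 5, against 6.14, 6.58, 8.05, 8.35 and 7.23 CPM in control libraries 1 to 5. Its mean was 3.35 ± 0.820 CPM in the knockdown and 7.27 ± 0.942 CPM in the control (SD, n = 5 each), or 2.16-fold lower in the knockdown (log2 fold change -1.11, SE 0.17, adjusted p = 4.9e-05). The kinase lay below every control library in each knockdown library, with library 2 closest to the controls. Normalised counts of BIRC5 were 37.6, 38.3, 67.9, 95.5 and 68.1 CPM in knockdown libraries 1 to 5 and 21.0, 19.8, 22.6, 21.3 and 20.8 CPM in control libraries 1 to 5. The means were 61.5 ± 24.2 CPM in the knockdown and 21.1 ± 1.03 CPM in the control (SD, n = 5 each), so that BIRC5 was 2.91-fold higher in the knockdown (log2 fold change 1.54, SE 0.23, adjusted p = 4.6e-05). Survivin RNA was highest in knockdown library 4, and no library overlapped. At 15.8 to 21.4 CPM in knockdown libraries and 12.2 to 14.9 CPM in control libraries, CDCA8 was 1.42-fold higher in the knockdown (log2 fold change 0.51, SE 0.10, adjusted p = 0.00049). Levels of INCENP were 28.4 to 33.4 CPM in the knockdown and 24.7 to 31.7 CPM in the control. INCENP, the scaffold, overlapped between the groups and did not pass the test (log2 fold change 0.13, SE 0.090, adjusted p = 0.20).

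Of the 9 motors and spindle assembly genes, 3 rose, 5 fell and DLGAP5 did not pass. HMMR, a spindle pole protein, rose most. Levels of HMMR were 8.85 to 12.4 CPM in the knockdown and 4.10 to 6.54 CPM in the control, 2.07-fold higher in the knockdown (log2 fold change 1.05, SE 0.14, adjusted p = 2.2e-05). KIF11, the motor that pushes the poles apart, and TPX2, which nucleates microtubules and activates Aurora A, rose by less. At 24.9 to 30.2 CPM in knockdown libraries and 16.7 to 22.5 CPM in control libraries, KIF11 was 1.36-fold higher in the knockdown (log2 fold change 0.45, SE 0.10, adjusted p = 0.0013). TPX2 ranged between 151 and 192 CPM in knockdown libraries and between 119.6 and 136 CPM in control libraries, 1.29-fold higher in the knockdown (log2 fold change 0.36, SE 0.088, adjusted p = 0.0021). None of the 3 overlapped between the groups, and HMMR shares exonic sequence with HMMR-AS1 on the other strand.

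Among those that fell, TACC3, which binds clathrin and stabilises kinetochore fibres, did so most. TACC3 had 22.8, 30.2, 24.9, 24.0 and 25.2 CPM in knockdown libraries 1 to 5, against 49.3, 45.6, 50.7, 50.9 and 42.5 CPM in control libraries 1 to 5. TACC3 averaged 25.4 ± 2.80 CPM in the knockdown and 47.8 ± 3.65 CPM in the control (SD, n = 5 each), 1.88-fold lower in the knockdown (log2 fold change -0.91, SE 0.094, adjusted p = 2.3e-06). ASPM, a protein of the spindle pole in which mutations cause microcephaly, and KIF4A, a motor on the chromosome arms and midzone, also fell with no overlap. Levels of ASPM were 15.0 to 22.0 CPM in the knockdown and 25.02 to 34.3 CPM in the control, 1.78-fold lower in the knockdown (log2 fold change -0.83, SE 0.13, adjusted p = 8.1e-05). At 10.1 to 14.4 CPM in knockdown libraries and 18.5 to 21.2 CPM in control libraries, KIF4A was 1.74-fold lower in the knockdown (log2 fold change -0.80, SE 0.11, adjusted p = 2.4e-05). NUSAP1, which bundles microtubules near chromatin, and KIF2C, which takes microtubules apart at the centromere, fell with overlap. NUSAP1 ranged between 12.5 and 19.9 CPM in knockdown libraries and between 19.5 and 24.0 CPM in control libraries, 1.38-fold lower in the knockdown (log2 fold change -0.46, SE 0.12, adjusted p = 0.0038). Levels of KIF2C were 12.7 to 17.2 CPM in the knockdown and 16.1 to 20.7 CPM in the control, 1.29-fold lower in the knockdown (log2 fold change -0.36, SE 0.11, adjusted p = 0.010). Under upper-quartile scaling KIF2C did not pass (adjusted p = 0.14). DLGAP5, which stabilises kinetochore fibres, had 13.5 to 20.6 CPM in knockdown and 15.6 to 18.0 CPM in control libraries (log2 fold change -0.13, adjusted p = 0.32), and it passed as lower without knockdown library 2 (log2 fold change -0.27, adjusted p = 0.0056).

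In the midzone and cytokinesis group 2 of 6 rose, 3 fell and PRC1 did not pass. KIF23 and RACGAP1 together make centralspindlin, the complex that bundles midzone microtubules. Normalised counts of KIF23 were 11.7, 16.5, 9.53, 7.54 and 8.57 CPM in knockdown libraries 1 to 5 and 27.1, 28.9, 28.0, 30.8 and 26.0 CPM in control libraries 1 to 5. Its mean was 10.8 ± 3.56 CPM in the knockdown and 28.2 ± 1.83 CPM in the control (SD, n = 5 each), or 2.60-fold lower in the knockdown (log2 fold change -1.38, SE 0.18, adjusted p = 1.8e-05). RACGAP1 had 35.1, 39.0, 37.6, 39.6 and 34.6 CPM in knockdown libraries 1 to 5, against 25.5, 25.2, 26.0, 28.6 and 25.7 CPM in control libraries 1 to 5. The means were 37.2 ± 2.25 CPM in the knockdown and 26.2 ± 1.36 CPM in the control (SD, n = 5 each), so that RACGAP1 was 1.42-fold higher in the knockdown (log2 fold change 0.50, SE 0.076, adjusted p = 5.4e-05). KIF23 was below and its partner above the controls in every library. KIF23-AS1 at KIF23 and AQP6 at RACGAP1 lie on the other strand with shared exonic sequence.

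ANLN, the anillin scaffold of the contractile ring, was a large fall. Normalised counts of ANLN were 46.2, 73.2, 40.7, 40.9 and 38.3 CPM in knockdown libraries 1 to 5 and 115, 120.4, 101, 116 and 97.7 CPM in control libraries 1 to 5. ANLN averaged 47.9 ± 14.4 CPM in the knockdown and 110.0 ± 10.01 CPM in the control (SD, n = 5 each), 2.30-fold lower in the knockdown (log2 fold change -1.20, SE 0.17, adjusted p = 2.8e-05). Knockdown library 2 had 73.2 CPM and still lay below every control library. ECT2, which activates RhoA at the equator and is recruited by centralspindlin, fell with overlap. At 15.4 to 25.7 CPM in knockdown libraries and 22.7 to 31.2 CPM in control libraries, ECT2 was 1.47-fold lower in the knockdown (log2 fold change -0.56, SE 0.15, adjusted p = 0.0036). KIF20A, the motor that carries the passenger complex to the midzone, rose. KIF20A ranged between 49.8 and 77.3 CPM in knockdown libraries and between 29.9 and 40.6 CPM in control libraries, 1.75-fold higher in the knockdown (log2 fold change 0.81, SE 0.13, adjusted p = 8.2e-05). PRC1, which cross-links the midzone microtubules, had 25.3 to 34.5 CPM in knockdown and 31.6 to 34.5 CPM in control libraries (log2 fold change -0.19, adjusted p = 0.083), and it passed as lower without knockdown library 2 (log2 fold change -0.27, adjusted p = 0.0034).

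Both transcription factors fell. MYBL2 and FOXM1 bind with MuvB proteins at the promoters of late cell cycle genes, many members of this list among them. FOXM1 lies at chr12:2857680-2877174 on the minus strand and shares exonic sequence with ITFG2 on the other strand. MYBL2 had 14.5, 15.9, 14.3, 14.7 and 14.1 CPM in knockdown libraries 1 to 5, against 27.9, 26.3, 26.6, 30.7 and 30.6 CPM in control libraries 1 to 5. Its mean was 14.7 ± 0.731 CPM in the knockdown and 28.4 ± 2.12 CPM in the control (SD, n = 5 each), or 1.93-fold lower in the knockdown (log2 fold change -0.95, SE 0.082, adjusted p = 5.6e-07). Normalised counts of FOXM1 were 12.01, 17.7, 11.3, 10.7 and 11.6 CPM in knockdown libraries 1 to 5 and 28.7, 25.9, 27.8, 29.6 and 28.0 CPM in control libraries 1 to 5. The means were 12.7 ± 2.84 CPM in the knockdown and 28.0 ± 1.38 CPM in the control (SD, n = 5 each), so that FOXM1 was 2.21-fold lower in the knockdown (log2 fold change -1.14, SE 0.13, adjusted p = 5.7e-06). For MYBL2 the knockdown libraries spanned a narrow range, and for FOXM1 knockdown library 2 was the highest of its group. No knockdown library of either gene reached a control library. Of the 45 genes of the list 23 rose, 16 fell, these 2 among them, and 6 did not pass. MKI67, which coats mitotic chromosomes and is the usual proliferation marker, and TOP2A, the topoisomerase that untangles sister DNA, both rose. MKI67 had 112, 115, 143, 178 and 161 CPM in knockdown libraries 1 to 5, against 79.6, 81.6, 103, 102 and 95.7 CPM in control libraries 1 to 5. MKI67 averaged 142 ± 28.7 CPM in the knockdown and 92.3 ± 11.1 CPM in the control (SD, n = 5 each), 1.54-fold higher in the knockdown (log2 fold change 0.62, SE 0.14, adjusted p = 0.0014). Levels of TOP2A were 76.6 to 95.9 CPM in the knockdown and 48.7 to 63.9 CPM in the control, 1.49-fold higher in the knockdown (log2 fold change 0.58, SE 0.10, adjusted p = 0.00019). In both the groups did not overlap.

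**Figure D2:**
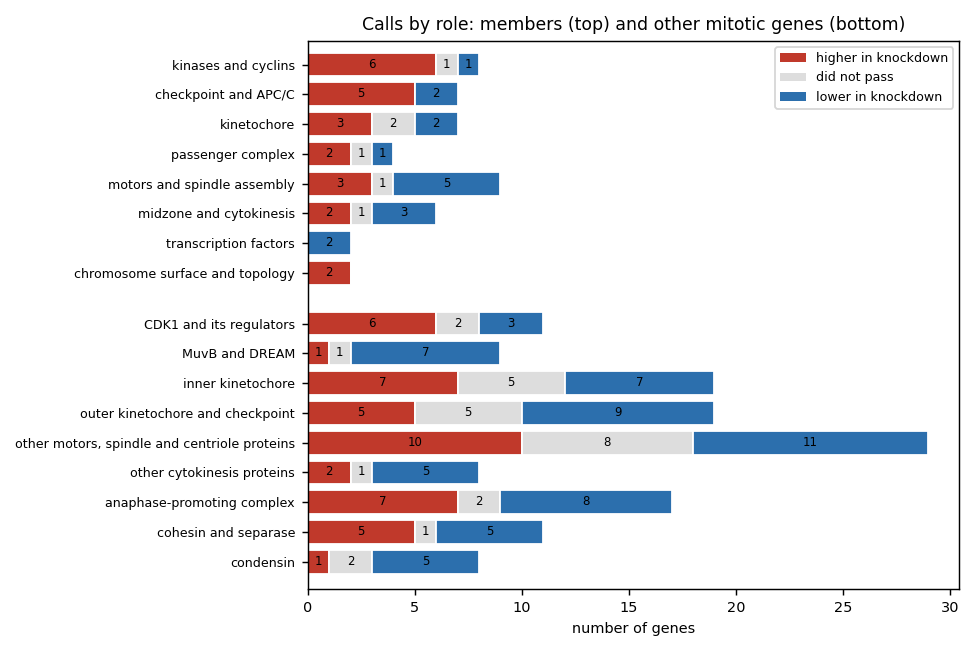
Bars count genes by role that rose (red), did not pass (grey) or fell (blue) in the knockdown relative to the control at an adjusted p below 0.05, for the 45 genes (top) and for 131 other mitotic genes (bottom). Kinases, cyclins, checkpoint and APC/C genes of the list held 11 of its 23 rises, and condensin and the MuvB group held mostly falls.

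Partners and paralogs could be compared within a library, where the ratio of their counts does not depend on how libraries are scaled. The 13 pairs were chosen with the values known, so the ratios are given without a test. The ratio of BUB1 to BUB1B counts was 8.29 ± 2.66 in knockdown and 1.92 ± 0.137 in control libraries (SD, n = 5 each). That of RACGAP1 to KIF23 was 2.99, 2.36, 3.94, 5.25 and 4.04 in knockdown libraries 1 to 5, against 0.943, 0.871, 0.929, 0.927 and 0.988 in control libraries 1 to 5. The ratio was higher in every knockdown library than in any control library, by a different amount in each. The genes differ in exon length, so a ratio of counts shows a shift between the groups and not which partner is more abundant.

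Relative to AURKB, counts of BIRC5 were 7.996 to 32.8 times as many in knockdown libraries and 2.55 to 3.42 times in control libraries. INCENP stood at 9.70 ± 1.91 counts per AURKB count in knockdown and 3.97 ± 0.463 in control libraries (SD, n = 5 each). CDCA8 stood at 5.86 ± 1.42 in knockdown and 1.85 ± 0.221 in control libraries. Each of the 3 partners gained on the kinase in every knockdown library. The Aurora paralogs showed the same, with 10.2 ± 0.549 AURKA counts per AURKB count in knockdown and 4.01 ± 0.525 in control libraries. All ratios of this paragraph share AURKB, which was 2.16-fold lower in the knockdown, so they are not separate observations. INCENP and AURKA did not pass the test themselves.

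CDC20 counts per MAD2L1 count were 5.78 ± 1.47 in knockdown and 1.48 ± 0.199 in control libraries (SD, n = 5 each). For CDC25B over CDC25C the ratio was 22.4 ± 5.41 in knockdown and 10.02 ± 1.58 in control libraries. The shift was smaller for CCNB1 over CCNB2, at 2.81 ± 0.0900 in knockdown and 2.14 ± 0.164 in control libraries. CKS2 over CKS1B came to 0.744 ± 0.0389 in knockdown and 0.417 ± 0.0204 in control libraries, so that CKS2 gained on its paralog. NUF2 over NDC80 came to 0.509 ± 0.0566 in knockdown and 0.329 ± 0.0405 in control libraries. In 11 of the 13 pairs the groups did not overlap. Single genes often did not overlap either (33.7% of all tested genes above and 33.8% below the controls), the share over other pairs of genes was not computed, and nothing particular to partners is read from the count. The 2 pairs that did overlap were SPC25 over SPC24 (0.498 ± 0.128 in knockdown and 0.564 ± 0.0617 in control libraries) and TPX2 over AURKA (4.93 ± 0.600 in knockdown and 4.47 ± 0.255 in control libraries).

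**Figure D3:**
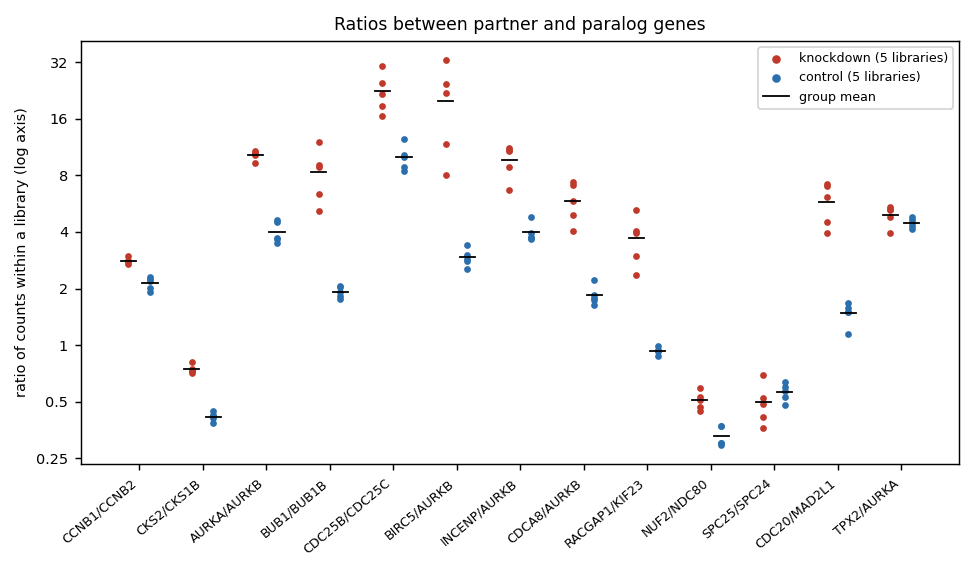
Points are the ratio of the counts of the named genes within 1 library (log axis), knockdown left in red and control right in blue, with bars at the group means (n = 5 each). BUB1 over BUB1B, the ratios over AURKB and RACGAP1 over KIF23 lie higher in every knockdown library than in any control library.

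The direction of these genes went with their span, the length from annotated start to end with introns. The 23 that rose had a median span of 19.9 kb and the 16 that fell 51.3 kb. Of the 6 genes up to 10 kb long 5 rose (CDC20, UBE2C, CKS1B, CKS2 and KIF20A) and 1 fell (AURKB, 5.87 kb), where 66.5% of all tested coding genes of that class rose and 13.6% fell. Between 10 and 30 kb 9 of 16 rose and 4 fell, against 48.9% and 29.1% of the coding genes. Between 30 and 100 kb 9 of 22 rose and 10 fell, against 23.2% and 57.0%. KIF4A, at 131 kb the longest and the only member over 100 kb, fell.

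Within each class the median log2 fold change of the mitotic genes was above that of coding genes: 1.55 against 0.77 up to 10 kb, 0.52 against 0.27 from 10 to 30 kb and -0.0093 against -0.48 from 30 to 100 kb. Spearman's rho between span and log2 fold change was -0.47 over the 45 genes and -0.60 over 14777 tested coding genes, given as a description since all points share the same 10 libraries. Members that stand apart from the trend in span were AURKB and FOXM1 (19.5 kb) below, and CENPA (36.8 kb) and NUF2 (89.2 kb) above. These 4 were picked after their values were seen. For CENPA and NUF2 the start in RefSeq, used for the promoters searched below, lies inside the span given here. A span counted from that start would be shorter, so how far both stand above the trend depends on the start used. Spans from RefSeq starts were not computed.

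**Figure D4:**
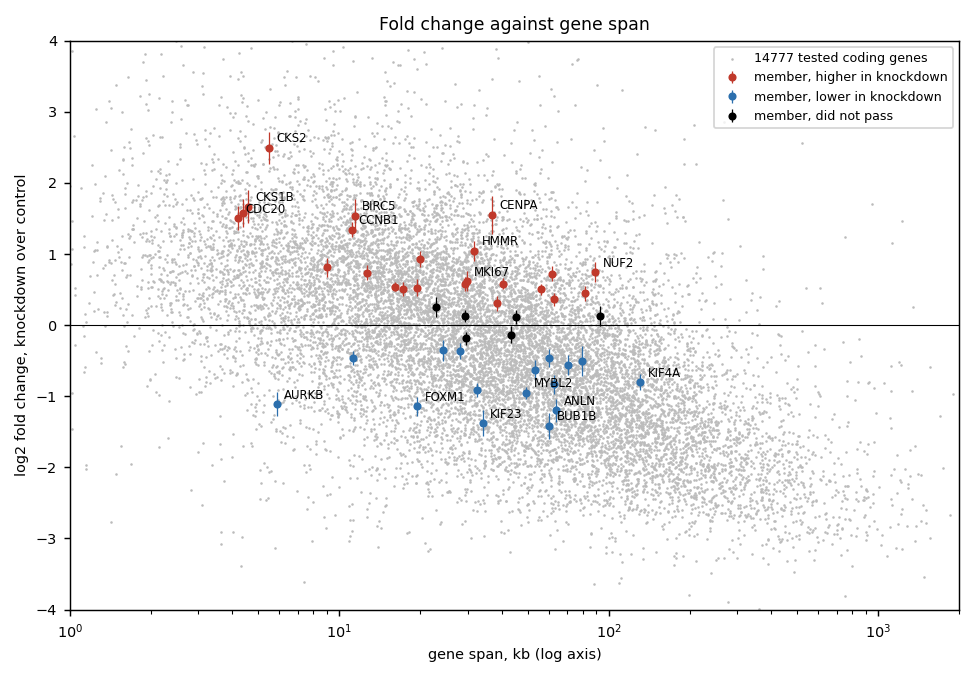
Log2 fold change (knockdown over control, error bars 1 SE) against gene span in kb on a log axis, for the 45 genes in colour and tested coding genes in grey, of which 144 lie outside the axes. The fold change falls with span in both, with AURKB low among the short genes.

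The late cell cycle genes share promoter elements, and sequences from RefSeq (GRCh38.p14, 250 bases before to 50 after each start) were searched for them. The elements were the cell cycle genes homology region, TTTGAA, which MuvB proteins bind, its variant TTCGAA, and CCAAT, which the factor NF-Y binds, on either strand, each counted by itself so that matches may share letters. There were 45 promoters for 37 of the 45 genes, with none for BUB3, AURKA, TTK, RACGAP1, FOXM1, TPX2, UBE2C and BIRC5. The following are the 130 bases before the start of 4 genes that rose and of 4 that fell, all on the plus strand and chosen after the values were seen to set both directions side by side. Capitals mark TTTGAA and CCAAT, or TTCAAA and ATTGG where the match is on the other strand.
CKS2 (chr9:89311065-89311194, rose): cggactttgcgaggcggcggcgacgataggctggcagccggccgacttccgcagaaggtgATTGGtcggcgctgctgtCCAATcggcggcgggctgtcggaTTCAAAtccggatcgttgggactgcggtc
CDC20 (chr1:43358851-43358980, rose): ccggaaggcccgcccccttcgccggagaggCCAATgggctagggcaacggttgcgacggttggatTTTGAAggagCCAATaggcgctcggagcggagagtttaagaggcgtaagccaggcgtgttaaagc
CCNB2 (chr15:59105016-59105145, rose): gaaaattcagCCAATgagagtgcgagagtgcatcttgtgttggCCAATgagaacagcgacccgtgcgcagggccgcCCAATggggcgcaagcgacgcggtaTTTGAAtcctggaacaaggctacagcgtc
PLK1 (chr16:23678759-23678888, rose): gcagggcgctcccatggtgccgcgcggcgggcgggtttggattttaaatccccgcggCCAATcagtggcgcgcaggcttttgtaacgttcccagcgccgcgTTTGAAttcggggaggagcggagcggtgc
KIF23 (chr15:69414219-69414348, fell): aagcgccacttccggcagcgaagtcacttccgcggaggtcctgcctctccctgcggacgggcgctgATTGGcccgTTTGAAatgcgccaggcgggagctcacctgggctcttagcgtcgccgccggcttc
BUB1B (chr15:40160939-40161068, fell): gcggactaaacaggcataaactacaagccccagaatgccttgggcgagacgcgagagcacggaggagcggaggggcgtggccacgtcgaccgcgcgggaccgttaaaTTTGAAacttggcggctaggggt
ANLN (chr7:36389732-36389861, fell): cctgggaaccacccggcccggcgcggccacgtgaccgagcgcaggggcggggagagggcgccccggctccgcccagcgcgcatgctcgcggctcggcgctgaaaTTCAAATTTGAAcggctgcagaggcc
KIF4A (chrX:70289974-70290103, fell): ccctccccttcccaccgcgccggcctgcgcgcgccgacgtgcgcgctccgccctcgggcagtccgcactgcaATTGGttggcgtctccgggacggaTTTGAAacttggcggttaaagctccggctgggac

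Both printed sets carry TTTGAA close to the start, but they were chosen after the values were seen and do not stand for the other promoters. TTTGAA was present in 29 of the 45 promoters (64.4%), against 15.2% of 35116 promoters of the same length. CCAAT was found in 32 of 45 (71.1%), against 34.6%, and TTCGAA in 3 of 45 (6.67%), against 1.45%. With a start 10 to 70 bases upstream, TTTGAA stood in 17 of 45 promoters (37.8%), against 2.93% of all. Of genes that rose, these were CDCA8, CDC20, CKS1B, CENPA, HMMR, CKS2, KIF11, MKI67, CCNB2 and PLK1. Fewer of those that fell had it there: CDC25C, ANLN, BUB1B, KIF23 and KIF4A. INCENP and PRC1, which did not pass, had it as well. This difference was not tested. A match describes the letters only and is not a site shown to be bound.

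Each of TTTGAA and CCAAT was found among genes of both directions. TTTGAA was in the promoters of 13 of 17 genes that rose and 10 of 15 that fell. CCAAT was in those of 16 of 17 genes that rose and 10 of 15 that fell, and TTCGAA in 2 of 17 that rose and 0 of 15 that fell. These shares were not tested against each other. KIF23, BUB1B, ANLN and KIF4A, which fell by 1.38, 1.41, 1.20 and 0.80 on the log2 scale, have TTTGAA in the printed stretch, as do CKS2, CDC20, CCNB2 and PLK1, which rose. In the printed stretches of BUB1B and ANLN there is no CCAAT. The promoter windows of MYBL2, TACC3 and KIF2C, which fell, and of CENPE, which did not pass the test, held none of the 3 elements.

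**Figure D5:**
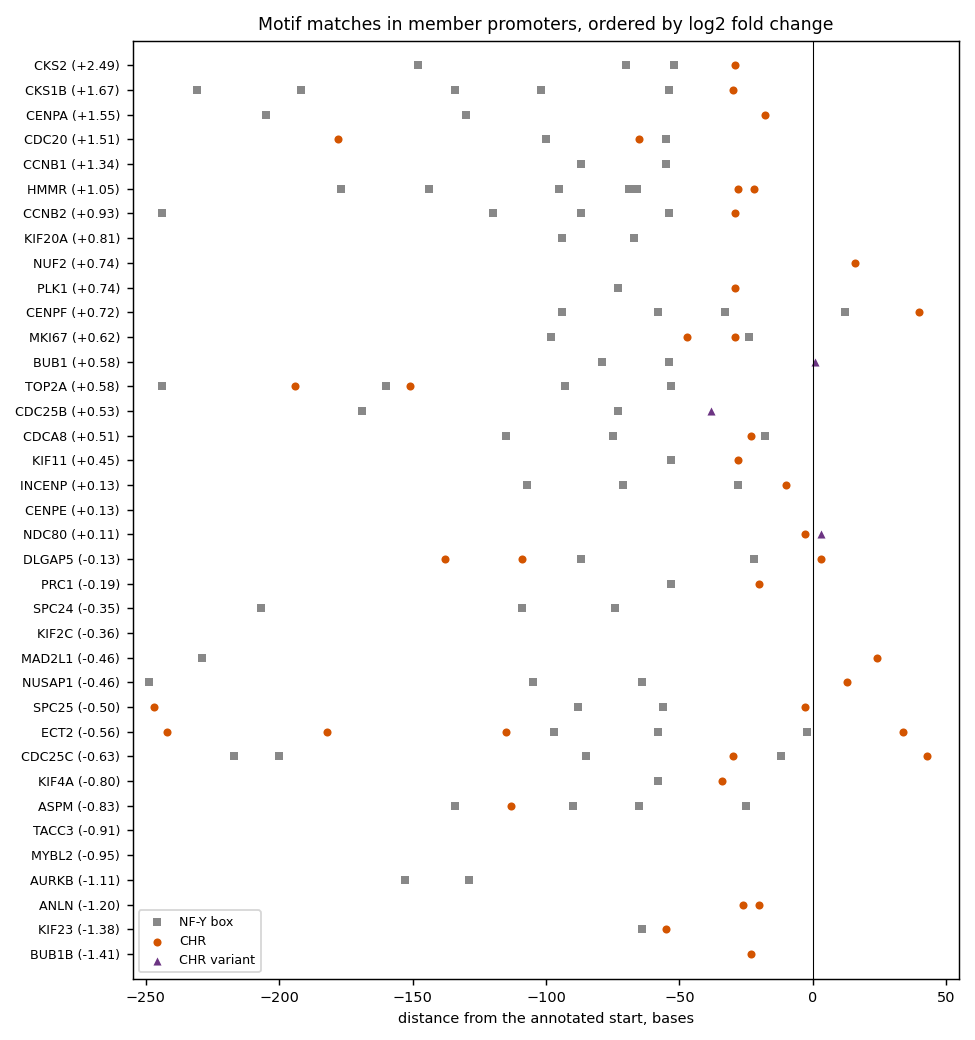
Positions of CCAAT (grey squares), TTTGAA (orange circles) and TTCGAA (purple triangles) by distance in bases from the annotated start, in the promoters of 37 genes, ordered from the largest rise at the top to the largest fall at the bottom with log2 fold changes in brackets. Orange circles lie shortly before the start for many genes that rose and for fewer genes that fell.

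The rest of the mitotic machinery was compared through a list of 131 other genes, all tested. Of these 44 rose, 60 fell and 27 did not pass, with a median log2 fold change of -0.17, where 40.1% of all tested genes rose and 39.6% fell. The list was drawn up with earlier results of these data known.

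CDK1, the kinase that the B-type cyclins activate, rose with them. Normalised counts of CDK1 were 26.4, 32.7, 28.3, 35.0 and 27.3 CPM in knockdown libraries 1 to 5 and 18.4, 19.4, 20.05, 19.4 and 18.9 CPM in control libraries 1 to 5. Its mean was 29.96 ± 3.73 CPM in the knockdown and 19.2 ± 0.631 CPM in the control (SD, n = 5 each), or 1.56-fold higher in the knockdown (log2 fold change 0.64, SE 0.094, adjusted p = 4.3e-05). Cyclin A2, its other partner, rose as well. CCNA2 averaged 38.6 ± 5.85 CPM in knockdown libraries and 22.2 ± 1.77 CPM in control libraries (SD, n = 5 each). This was 1.74-fold higher in the knockdown (log2 fold change 0.80, SE 0.11, adjusted p = 2.6e-05). Of the 11 genes of CDK1 and its regulators 6 rose and 3 fell. ARPP19, an inhibitor of the phosphatase PP2A, rose (log2 fold change 1.58, SE 0.15), and MASTL, the kinase that turns ARPP19 into that inhibitor, fell (-1.19, SE 0.13).

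Of the 9 genes of MuvB and its DREAM partners 1 rose and 7 fell. TFDP1 averaged 17.9 ± 2.34 CPM in knockdown libraries and 76.2 ± 3.31 CPM in control libraries (SD, n = 5 each). TFDP1 was thus 4.26-fold lower in the knockdown (log2 fold change -2.09, SE 0.098, adjusted p = 1.5e-08). TFDP1 is the dimer partner of the E2F factors, and it fell further than MYBL2 or FOXM1. RBBP4, the histone-binding subunit, was the 1 that rose (log2 fold change 0.98, SE 0.10).

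In the kinetochore, 7 of 19 inner genes rose and 7 fell, and 5 of 19 further outer kinetochore and checkpoint genes rose and 9 fell. MIS12, a subunit of the complex that binds the NDC80 complex to the centromere, rose. MIS12 averaged 69.8 ± 19.7 CPM in knockdown libraries and 15.7 ± 1.68 CPM in control libraries (SD, n = 5 each). This was 4.43-fold higher in the knockdown (log2 fold change 2.15, SE 0.18, adjusted p = 5.5e-07). Its fellow subunits did not rise: PMF1 (log2 fold change -0.90) and NSL1 (-0.63) fell, and DSN1 (0.13, adjusted p = 0.41) did not pass. MAD1L1, which holds MAD2 at unattached kinetochores, fell together with MAD2L1, and its gene spans 417 kb. MAD1L1 averaged 4.16 ± 1.31 CPM in knockdown libraries and 21.1 ± 1.23 CPM in control libraries (SD, n = 5 each). MAD1L1 was thus 5.06-fold lower in the knockdown (log2 fold change -2.34, SE 0.18, adjusted p = 2.5e-07). CENPW rose (log2 fold change 1.58, SE 0.16) and CENPT, its neighbour in the complex at the centromere, fell (-1.09, SE 0.12).

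Among the 17 subunits and regulators of the APC/C, 7 rose and 8 fell, with ANAPC2 lowest. ANAPC2 is the cullin subunit of its catalytic core. ANAPC2 had 4.51, 8.21, 4.26, 3.45 and 4.98 CPM in knockdown libraries 1 to 5, against 35.1, 35.2, 38.1, 35.8 and 36.3 CPM in control libraries 1 to 5. ANAPC2 averaged 5.08 ± 1.83 CPM in the knockdown and 36.1 ± 1.20 CPM in the control (SD, n = 5 each), 7.06-fold lower in the knockdown (log2 fold change -2.82, SE 0.19, adjusted p = 1.3e-07). The groups lay far apart, at a span of only 13.8 kb. ANAPC13, a small structural subunit, rose (log2 fold change 1.34, SE 0.11). The catalytic cullin thus fell while CDC20 and UBE2C, an activator and a conjugating enzyme, rose. This does not hold for the group as a whole. There FZR1 fell (log2 fold change -0.29, adjusted p = 0.0020) and UBE2S did not pass (0.093, adjusted p = 0.48). ANAPC11 rose (1.11, adjusted p = 0.00025).

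For the 29 other motors, spindle and centriole proteins 10 rose and 11 fell, with HAUS3 of the augmin complex highest among those named (log2 fold change 2.18, SE 0.10) and the microtubule plus-end protein CLASP1 lower (-1.55, SE 0.12). Cytokinesis genes outside the list numbered 8, of which 2 rose, ARHGAP11A (0.51, SE 0.098) among them, and 5 fell, SEPTIN9 (-1.30, SE 0.094) among them. Cohesin and separase split 5 to 5 of 11. There the kleisin RAD21 rose (1.53, SE 0.12) and STAG1, a subunit that binds it, fell (-1.81, SE 0.11). Of 8 condensin genes 1 rose, NCAPH2 (0.34, SE 0.089), and 5 fell, NCAPD3 (-1.10, SE 0.093) among them.

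Counting only the 28 members of the list of 45 whose exons overlap no other annotated gene, 17 rose and 6 fell. Of all 45, 23 rose and 16 fell, so that most of the falls lay among members with an overlap. Across all tested genes 40.1% rose and 39.6% fell. The shares among all tested genes with and without such an overlap were not computed, so nothing particular to the list is read from this split. The other 17, of which 4 overlap a gene on the same strand and 15 a gene on the other strand, are uncertain. Reads shared with a neighbour may have been counted or left out. Whether this has a part in their calls was not tested.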

How the data were processed

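RNA of 5 knockdown and 5 control libraries was compared, grouped by the sample titles. The authors deposited 1 table of raw counts per gene for all libraries, whole numbers that are not normalised, and 0 sample columns were left unmapped. Per the labels' protocols, the library kit depletes ribosomal RNA and keeps strand. Per the submitters' processing notes, the authors' reads were trimmed with Trim Galore 0.65, aligned with STAR 2.7.0 to GRCh38 and counted with HTSeq, for which the sources used here give neither version nor strand setting. The design text names GENCODE release 38. Names, spans and positions were taken here from release 44, which holds 61481 of the 78932 identifiers. The other 17451 held 0.25% to 0.41% of a library's counts and stayed in library sizes and tests, with 1060 of them tested.

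Counts were normalised with TMM factors and tested with edgeR 4.0.16 in R 4.3.3 (filterByExpr, robust quasi-likelihood F test, Benjamini-Hochberg adjustment over 21033 genes, threshold 0.05). Each standard error is the size of the log2 fold change over the root of its F statistic. The common biological coefficient of variation was 19.2%. Fold changes are set against the bulk of genes, since TMM scaling assumes that rises and falls balance. The lowest chi-square per degree of freedom between libraries of a group was 4.13, so all were kept as separate samples. Knockdown libraries 3, 4 and 5 lay closest together, at 4.13 to 11.7, while pairs with knockdown library 1 or 2 had 46.1 to 207. The labels do not say that replicates came from separate cultures, so p-values measure only the spread between these samples, which may be technical. The value of 1 count in CPM rests on the library total and its TMM factor, which lay between 0.899 and 1.16. The error of that scaling was not estimated.

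The 45 genes, the list of other mitotic genes, the marker lists and the pairs were chosen with earlier results of these data known. Named from the other mitotic genes were those with the smallest p in each direction of each group, with CDK1 and CCNA2. PMF1, NSL1, DSN1, FZR1, UBE2S and ANAPC11 were added beside MIS12 and ANAPC2. Alternatives were DESeq2 1.42.0 size factors and test, upper-quartile factors, no filter beyond 1 count, a minimum mean of 1 CPM, the replicate number as a block, each library left out, and knockdown libraries 1 and 2 left out together. The test was first tested on simulated data, in which few genes were changed and in random directions. In these data most genes were called, so the simulation does not show how the test does here. Promoter sequences came from RefSeq (GRCh38.p14). Figures were drawn with matplotlib 3.10.9.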

Additional observations from a re-analysis of the deposited data

Results flagged for a closer look

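In 11 of 90 sets of 5 libraries (45 genes in each group) 1 library stood apart from the other 4 by Dixon's test at its critical value of 0.71, where chance gives about 1 in 20. Of these 9 were in knockdown library 2, each as the highest of its group. AURKA had 48.8 CPM there, against 28.8 to 34.5 CPM in the other knockdown libraries. AURKB had 4.78 CPM, against 2.76 to 3.22 CPM. KIF2C had 17.2 CPM (others 12.7 to 13.8 CPM) and KIF4A 14.4 CPM (others 10.1 to 10.8 CPM). DLGAP5 had 20.6 CPM (others 13.5 to 14.4 CPM) and ASPM 22.0 CPM (others 15.0 to 16.04 CPM). ECT2 had 25.7 CPM (others 15.4 to 17.4 CPM), ANLN 73.2 CPM (others 38.3 to 46.2 CPM) and FOXM1 17.7 CPM (others 10.7 to 12.01 CPM). The remaining 2 were in control library 4, with 11.4 CPM of TTK (others 9.34 to 9.83 CPM) and 28.6 CPM of RACGAP1 (others 25.2 to 26.0 CPM). On the first principal component of all genes, knockdown library 2 lay at -49.5 and the other knockdown libraries between -140.3 and -93.3.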

How the results depend on the processing

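Of the 45 genes 35 kept their direction and their side of the threshold under all 19 alternatives, and the counts of genes that rose or fell stayed within 1.5 times under each. With 1 library left out, 22 to 23 of the 45 rose and 14 to 18 fell. Without knockdown libraries 1 and 2 together 23 rose and 17 fell. The 10 genes that changed side in at least 1 alternative were AURKA, TTK, CENPE, NDC80, SPC24, SPC25, INCENP, KIF2C, DLGAP5 and PRC1. Direction turned for 3 genes that did not pass in the reported test: CENPE had a log2 fold change of -0.0023 to 0.20 with 1 library left out, negative without knockdown library 2, and of -0.067 without knockdown libraries 1 and 2, and with upper-quartile factors DLGAP5 had 0.059 and PRC1 0.0079. AURKA, CENPE, NDC80 and INCENP passed as higher with upper-quartile factors (adjusted p = 0.0045, 0.033, 0.0082 and 0.0049). The cause was not tested. With the replicate number as a block (replicate block), 23 of the 45 rose and 14 fell, with the calls of SPC24 (adjusted p = 0.076) and SPC25 (adjusted p = 0.051) lost. The labels do not say whether the numbers pair the samples. Deviations of same-numbered libraries correlated at -0.17 to 0.22, over 0.1 in 2 of 5 pairs, and 2 of 5 libraries correlated best with their own number. With so few pairs these values cannot exclude a pairing. The lowest count of any of the 45 in a library was 31, for SPC25, and depth as a limit was not compared between genes.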
